A study of Mus musculus with 23 samples.

Results

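The retinoid binding and metabolism genes described here are 9 of the 36793 genes in the deposited tables: Stra6, Crabp1, Crabp2, Aldh1a1, Aldh1a2, Aldh1a3, Cyp26b1, Rarb and Rarg. They were chosen by name, with earlier results of these data known, starting from the high count of Crabp1 in cultured SCCVII tumour cells. Comparisons that hold those cells are therefore given as levels and ratios, with no test, and support nothing. Each of the 9 genes was found in both tables and is followed through all 23 libraries.

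Retinol, the circulating form of vitamin A, enters cells through receptors such as STRA6 and is oxidised to retinal and then to retinoic acid, the last step by the ALDH1A enzymes. Retinoic acid is carried in the cytoplasm by the binding proteins CRABP1 and CRABP2, is broken down by CYP26 enzymes, and acts through the nuclear receptors RARA, RARB and RARG, which bind DNA together with RXR partners. Retinoids are known for their control of differentiation in squamous epithelium, the tissue in which head and neck carcinoma arises, and dendritic cells and some macrophages are known to make retinoic acid through ALDH1A2.

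The samples were mouse cells of 3 implanted head and neck tumour models. SCCVII (also spelled SSCVII in the labels) is a squamous carcinoma line grown in C3H/HeJ mice, and HPV+ MEER and HPV- MEER are oropharyngeal epithelial lines grown in C57/Bl6 mice, with and without papillomavirus oncogenes. The groups were SCCVII colonies (2 libraries), HPV- MEER colonies (3), macrophages from SCCVII, HPV+ MEER and HPV- MEER tumours (3 each), and the cultured SCCVII, HPV+ MEER and HPV- MEER tumour cells (3 each). Macrophages were sorted from subcutaneous tumours as CD45+CD11b+Gr1-F4/80hi cells, and each of their libraries pooled 3 to 4 mice. Colonies, named macrophage progenitor colonies by the labels, were grown from such sorted cells for 9 days in a haematopoietic stem cell medium. Each HPV status is 1 MEER line, so viral status and any other difference between these 2 lines cannot be told apart, and SCCVII differs from MEER in mouse strain as well. The tumour-cell libraries are aliquots of a culture, so p-values there cover the spread among aliquots, which may be technical only.

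Libraries held 26848759 to 47609481 expected counts, and 3 counts in 1 library corresponded to 0.0545 to 0.138 CPM (expected counts relative to library size, scaled by TMM over the 23 libraries), which covers counting error only. The labelled cell types were checked against 6 macrophage markers. These summed to 9714 to 20857 CPM in the 9 macrophage libraries and to 7.30 to 23.6 CPM in the lines. Colonies went against their label in part. The sum was 1137 and 14035 CPM in SCCVII colonies and 44.3 to 12556 CPM in HPV- colonies, and Csf1r, the receptor that macrophages need for growth, averaged 50.6 ± 57.2 and 188 ± 320 CPM (SD) there, against 3081 ± 67.6 and 3068 ± 545 CPM in macrophages of the same tumours. Transcripts typical of a tumour line (at least 50 CPM in that line and at most 1 CPM in every macrophage library of the other models) stood in the colonies at a median of 49.5% and 64.4% (SCCVII, 22 genes) and 40.8%, 83.4% and 73.4% (HPV-, 43 genes) of their level in that line. In macrophage libraries this median was 0.376% to 0.818%, except in library 4 of the HPV- macrophages, where it was 4.73%. Colony libraries are therefore named by their label below with no claim on cell type.

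**Figure D1:**
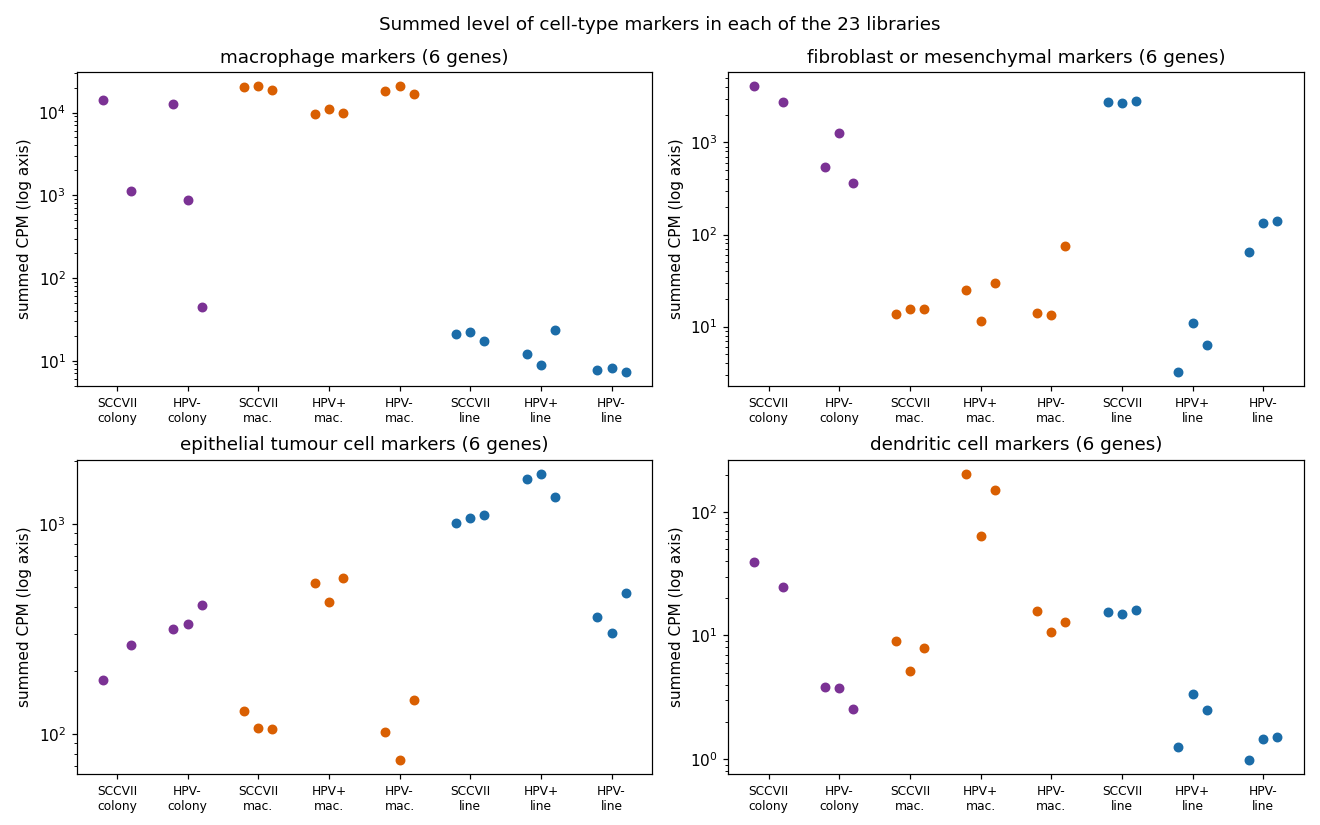
Summed CPM (log axis) of 4 marker lists in each of the 23 libraries, 1 point per library, coloured by kind (purple colonies, orange macrophages, blue tumour-cell lines). Macrophage markers lie between 9714 and 20857 CPM in all macrophage libraries and spread from 44.3 to 14035 CPM over the 5 colony libraries, while mesenchymal markers lie at 2778 to 4093 CPM in SCCVII colonies and 2660 to 2793 CPM in the SCCVII line.

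The promoters of 2 genes are shown: that of Rarb, a receptor gene that is itself a known target of retinoic acid, and that of Crabp1, the gene from which the choice started. Sequences are those of RefSeq (GRCm38.p6), 250 bases upstream of an annotated start, 5′ to 3′ on the gene's strand. Windows were found for 7 of the 9 genes. Each was searched for 2 half-sites in the same direction, with AGGTCA as a half-site or its variants with an inner T (AGTTCA) or an initial G (GGGTCA) or both changes (GGTTCA), on either strand, separated by 1, 2 or 5 bases, the spacings known to bind RAR and RXR. Capitals mark the half-sites.
Rarb: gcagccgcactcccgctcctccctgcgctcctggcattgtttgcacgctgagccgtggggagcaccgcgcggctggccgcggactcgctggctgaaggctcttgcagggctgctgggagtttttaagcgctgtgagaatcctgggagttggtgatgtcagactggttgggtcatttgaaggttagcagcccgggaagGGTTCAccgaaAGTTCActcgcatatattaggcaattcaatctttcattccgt
Crabp1: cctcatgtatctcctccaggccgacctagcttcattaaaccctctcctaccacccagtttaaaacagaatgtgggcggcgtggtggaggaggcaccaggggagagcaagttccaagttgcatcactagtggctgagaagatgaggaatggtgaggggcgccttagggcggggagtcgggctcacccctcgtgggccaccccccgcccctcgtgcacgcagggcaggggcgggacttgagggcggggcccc
The Rarb window (chr14:16575477-16575726, minus strand) held the pair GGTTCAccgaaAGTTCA with 5 bases between, at 53 to 37 bases before the start. A pair with this spacing occurred in 0.0883% of all 32851 windows, and pairs spaced by 1 and by 2 bases in 0.164% and 0.174%. The Crabp1 window (chr9:54764498-54764747, plus strand) held no pair, and Rarb was the 1 gene of the 7 with a match. A match is a description of these letters, not a measured binding site.

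Per transcript length, on the deposited TPM scale, the order of the 9 genes is given as a description, since it includes the values that chose them. The 9 genes summed to 1262 TPM in SCCVII colonies and 135.6 TPM in HPV- colonies. The sums were 70.3, 23.9 and 37.1 TPM in SCCVII, HPV+ and HPV- macrophages, and 1405.5, 149.9 and 104.4 TPM in the SCCVII, HPV+ and HPV- lines. Crabp1 was the highest of the 9 in SCCVII colonies (828 ± 13.1 TPM, n = 2) and the SCCVII line (709 ± 32.6 TPM, n = 3), followed in each by Crabp2 and Rarg. Rarg was the highest in each of the other 6 groups and made up 41.5% of the sum in HPV- colonies, 52.1% in SCCVII macrophages and 84.8% in HPV- macrophages. In HPV- colonies the next 2, Aldh1a1 at 25.9 ± 6.32 TPM and Crabp2 at 25.5 ± 6.79 TPM, did not differ beyond their spread. Cyp26b1 followed at 15.9 ± 4.54 TPM and Stra6 at 10.0 ± 7.5 TPM, so 5 of the 9 genes were at 10 TPM or more there, against 3 in the SCCVII line, 2 in the HPV+ line and 1 in the HPV- line. Without colony library 2 Stra6 averaged 5.71 TPM and the count in HPV- colonies was 4.

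**Figure D2:**
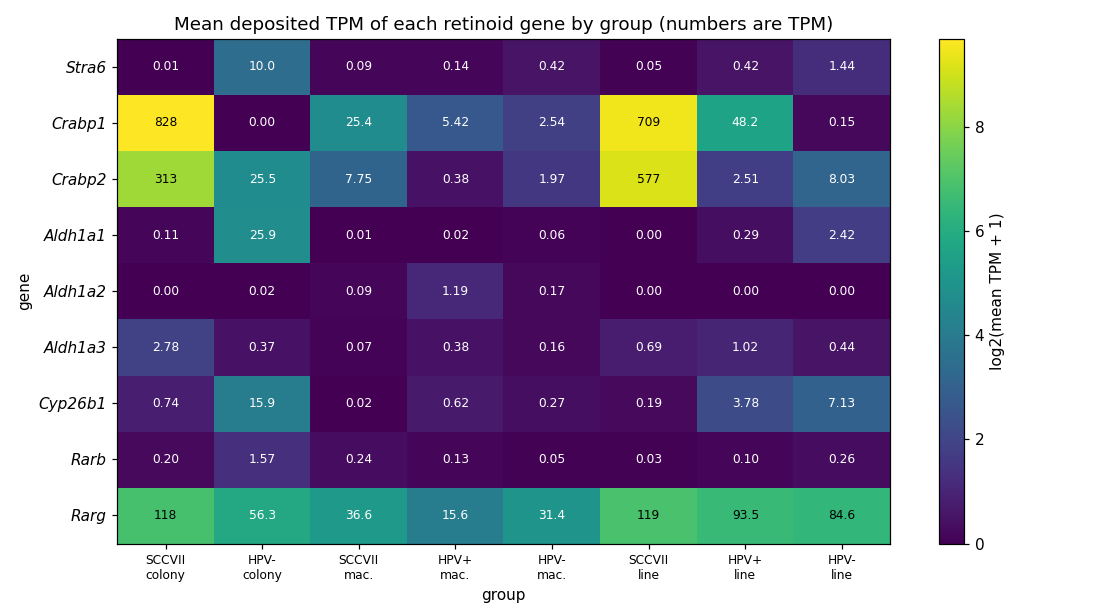
Mean deposited TPM (numbers; colour is log2(mean TPM + 1)) of the 9 genes, in rows by role, in the 8 groups, in columns. Crabp1 and Crabp2 stand at 828 and 313 TPM in SCCVII colonies and 709 and 577 TPM in the SCCVII line, and Rarg leads in the other 6 groups.

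**Figure D3:**
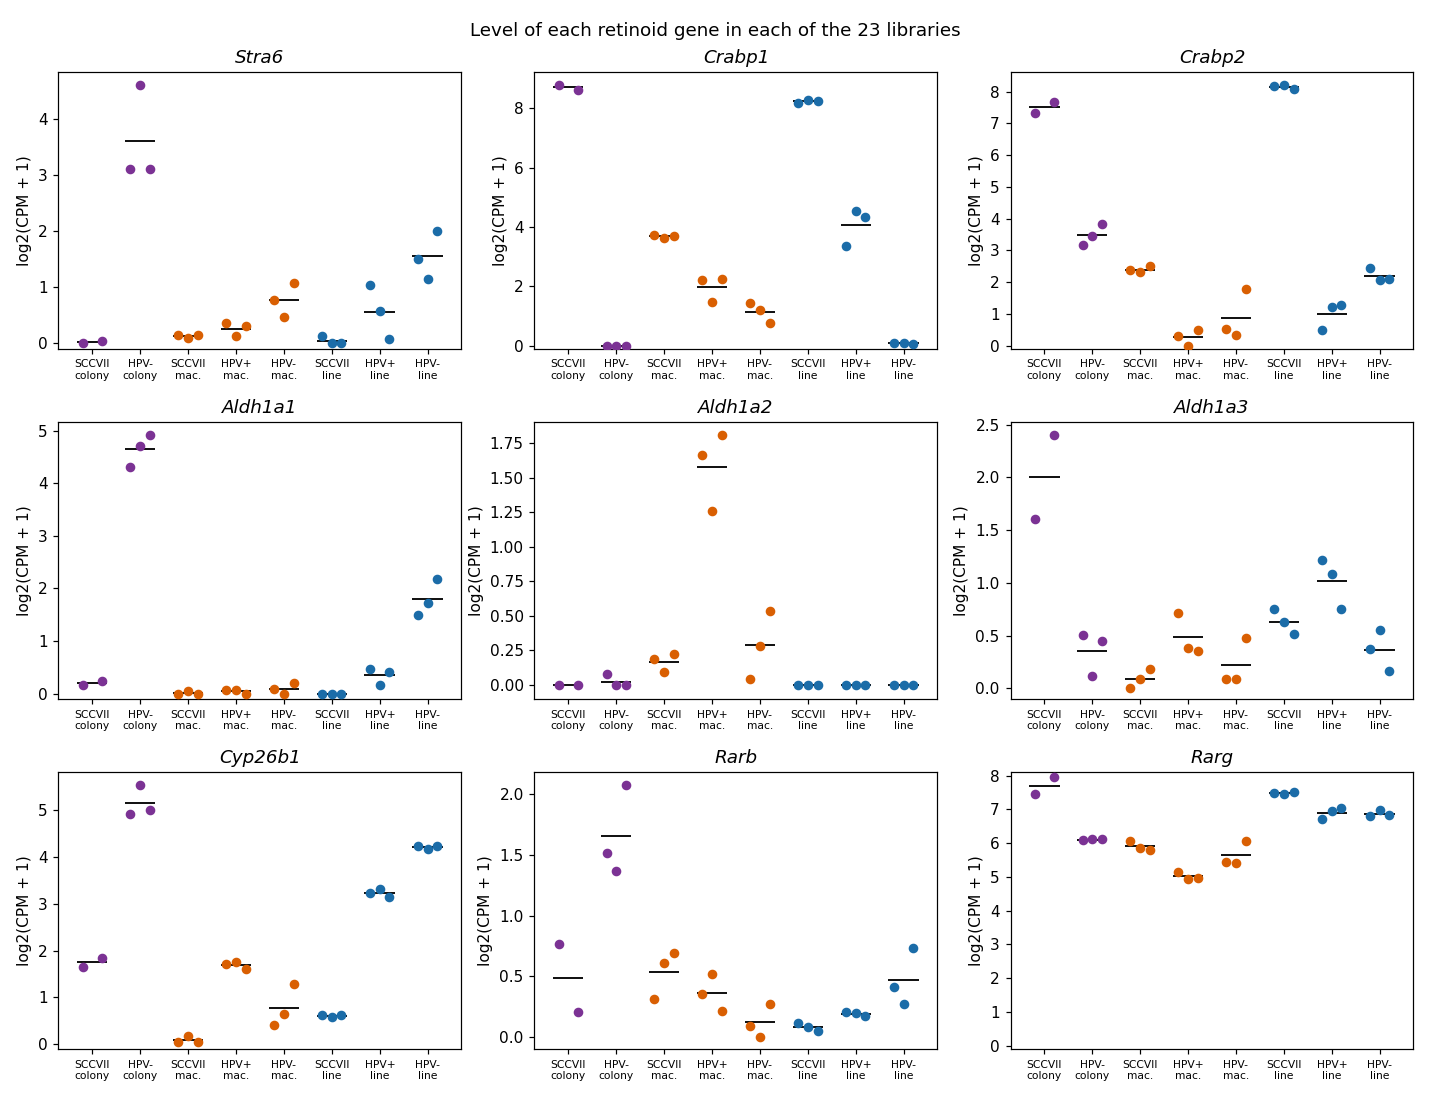
Level of each of the 9 genes as log2(CPM + 1), 1 point per library in 8 groups (purple colonies, orange macrophages, blue lines), with the group mean as a bar. Crabp1 and Crabp2 are high in SCCVII colonies and line, Aldh1a1, Cyp26b1, Stra6 and Rarb are highest in HPV- colonies, and Aldh1a2 is above 1 CPM in the 3 HPV+ macrophage libraries and in no other library.

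Stra6 (ENSMUSG00000032327, GRCm38 chr9:58063788-58153996, plus strand) encodes the membrane receptor that takes up retinol from its plasma carrier. It had 0 and 0.030 CPM in SCCVII colonies, against 7.67, 23.5 and 7.63 CPM in HPV- colonies. In macrophages it had 0.103, 0.0661 and 0.102 CPM for SCCVII, 0.276, 0.0867 and 0.235 CPM for HPV+ and 0.713, 0.374 and 1.10 CPM for HPV- tumours. HPV- colonies were the highest group and overlapped with no other. In the lines it had 0.0855, 0 and 0 CPM for SCCVII, 1.05, 0.487 and 0.0503 CPM for HPV+ and 1.84, 1.22 and 3.01 CPM for HPV- cells. In HPV- colonies Stra6 rose over HPV- macrophages by a log2 of 4.11 ± 0.61 (adjusted p = 0.00056 by the quasi-likelihood test of edgeR, as throughout), and by 3.44 without colony library 2. Against the HPV- line it rose by 2.67 ± 0.60 (adjusted p = 0.0076), and by 1.94 without that library. SCCVII colonies held 1 count and HPV- colonies 1478, a ratio of 0.0014 (95% counting interval 3.55e-05 to 0.00784, adjusted p = 0.00033). Among macrophages it fell by 2.98 ± 0.59 in SCCVII relative to HPV- (adjusted p = 0.0033) and fell by 1.83 ± 0.55 in HPV+ relative to HPV- (adjusted p = 0.021). The HPV+ call was lost in 5 of 12 alternatives, among them without HPV- macrophage library 4 (log2 -1.40, adjusted p = 0.059), without HPV+ library 2 (-1.49, adjusted p = 0.067) and without HPV+ library 3 (-1.97, adjusted p = 0.051). Between HPV+ and HPV- lines the change of -1.95 ± 0.79 did not pass (adjusted p = 0.065), and it passed without HPV+ line library 1 (-2.95, adjusted p = 0.016). Stra6 did not pass between SCCVII and HPV+ macrophages (-1.15 ± 0.67, adjusted p = 0.16), nor between macrophages and line in HPV+ (-1.21 ± 0.84, adjusted p = 0.2) or HPV- tumours (-1.35 ± 0.69, adjusted p = 0.085).

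Crabp1 (ENSMUSG00000032291, chr9:54764748-54773110, plus strand) encodes a cytoplasmic carrier thought to hold retinoic acid for breakdown. It had 439 and 392 CPM in SCCVII colonies, against 0 counts in each of the 3 HPV- colonies. In macrophages it had 12.2, 11.5 and 11.9 CPM for SCCVII, 3.64, 1.78 and 3.76 CPM for HPV+ and 1.68, 1.28 and 0.686 CPM for HPV- tumours. The 3 macrophage groups did not overlap, with SCCVII the highest and HPV- the lowest. In the lines it had 286, 306 and 303 CPM for SCCVII, 9.18, 22.4 and 19.3 CPM for HPV+ and 0.0658, 0.0583 and 0.049 CPM for HPV- cells, the last from 2 counts per library. The SCCVII line mean was 17.6 times that of the HPV+ line, 5169 times that of the HPV- line, 25.2 times that of SCCVII macrophages and 0.718 times that of SCCVII colonies, values used in choosing the genes and not tested.

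Among macrophages Crabp1 rose in SCCVII by 3.27 ± 0.35 relative to HPV- (adjusted p = 9.6e-05) and by 1.91 ± 0.33 relative to HPV+ (adjusted p = 0.00066). It rose in HPV+ relative to HPV- by 1.36 ± 0.35 (adjusted p = 0.0096). In bulk samples a change in the share of cells that express a gene and a change in RNA per cell cannot be told apart. The level in SCCVII macrophages was 3.98% of that in the SCCVII line, where line-typical transcripts had medians of 0.617% to 0.818% and upper quartiles of 1.41% to 1.63%, and where the epithelial keratin genes Krt8 and Krt18 stood at 5.93% and 3.71%. In HPV+ macrophages it was 18% of that in the HPV+ line, where line-typical transcripts had medians of 0.376% to 0.567% and Krt8 and Krt18 stood at 3.61% and 3.48%. The part of tumour cells in the macrophage levels was not tested. In HPV- macrophages the mean of 1.22 ± 0.50 CPM lay above that of the HPV- line, 0.0577 ± 0.0084 CPM, a rise of 4.43 ± 0.68 (adjusted p = 1.9e-05), while in HPV+ macrophages it fell by 2.30 ± 0.30 relative to the HPV+ line (adjusted p = 3.3e-06). The HPV+ line rose over the HPV- line by 8.12 ± 0.47 (adjusted p = 8.4e-07), a size that rests on 6 counts in the HPV- line.

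In colonies Crabp1 rose in SCCVII and fell in HPV-. SCCVII colonies rose over SCCVII macrophages by 5.13 ± 0.33 (adjusted p = 3.1e-05). SCCVII colonies held line-typical transcripts at medians of 49.5% and 64.4% of the SCCVII line, and Crabp1 at 139%. Tests of Crabp1 in these colonies may therefore repeat the level that chose the genes, and they are no independent support. With 3 counts, summed over the 3 libraries, set as their ceiling, HPV- colonies were 49.0-fold below HPV- macrophages (edgeR adjusted p = 8.9e-05). By the same bound they were 2.32-fold below the HPV- line, which held only 6 counts (adjusted p = 0.016). These bounds leave out the counting error of the group compared. The call against the line was lost in 1 of 11 alternatives (adjusted p = 0.057). SCCVII colonies were at least 16820-fold higher than HPV- colonies (adjusted p = 5.8e-06). Without HPV- colony library 1 these bounds were 27.0-fold, 1.28-fold and 9258-fold. HPV- colonies come from a table of their own, so an effect of the table and one of the group cannot be told apart.

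Crabp2 (ENSMUSG00000004885, chr3:87948666-87953376, plus strand) encodes the carrier that passes retinoic acid to its nuclear receptors. It had 161 and 204 CPM in SCCVII colonies, against 8.00, 10.0 and 13.1 CPM in HPV- colonies. In macrophages it had 4.18, 3.97 and 4.64 CPM for SCCVII, 0.230, 0 and 0.392 CPM for HPV+ and 0.421, 0.249 and 2.45 CPM for HPV- tumours, the last value being library 4. SCCVII macrophages lay above all other macrophage libraries. In the lines it had 288, 296 and 273 CPM for SCCVII, 0.390, 1.32 and 1.43 CPM for HPV+ and 4.41, 3.21 and 3.26 CPM for HPV- cells. The SCCVII line mean was 78.8 times that of the HPV- line, 273 times that of the HPV+ line and 67.0 times that of SCCVII macrophages, again without a test.

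SCCVII macrophages were higher than HPV+ macrophages by 4.27 ± 0.98 (adjusted p = 0.0039), and by 5.14 without HPV+ library 3. The difference to HPV- macrophages, 2.00 ± 0.82, did not pass (adjusted p = 0.082), and without HPV- library 4 it was 3.64 and passed (adjusted p = 0.00041). The HPV+ to HPV- macrophage change of -2.27 ± 0.99 did not pass (adjusted p = 0.084), and it passed with DESeq2 (-2.27, adjusted p = 0.031), with all 23 libraries in the fit (-2.29, adjusted p = 0.0498) and without HPV- library 2 (-2.73, adjusted p = 0.034). The level in SCCVII macrophages was 1.49% of that in the SCCVII line. Line-typical transcripts had medians of 0.617% to 0.818% and upper quartiles of 1.41% to 1.63% there, and Krt8 and Krt18 stood at 5.93% and 3.71%. The part of tumour cells in this Crabp2 level was not tested. The HPV+ line fell by 1.77 ± 0.31 relative to the HPV- line (adjusted p = 0.00095). Crabp2 fell by 1.65 ± 0.53 in HPV- macrophages relative to the HPV- line (adjusted p = 0.0099), with a log2 of -3.29 without macrophage library 4. That call was lost with only the 2 groups in the fit (adjusted p = 0.093). HPV+ macrophages fell by 2.14 ± 0.88 relative to the HPV+ line (adjusted p = 0.037), a call lost without macrophage library 1, macrophage library 2, line library 2 or line library 3 (adjusted p = 0.074, 0.13, 0.083 and 0.11) and kept at -3.04 without macrophage library 3. Colonies rose over macrophages in SCCVII by 5.42 ± 0.75 (adjusted p = 0.00038) and in HPV- by 3.28 ± 0.68 (adjusted p = 0.003), the second being 4.97 without macrophage library 4. SCCVII colonies rose over HPV- colonies by 4.15 ± 0.71 (adjusted p = 0.0021). HPV- colonies did not pass against the HPV- line (1.53 ± 0.71, adjusted p = 0.1), but passed with DESeq2 (adjusted p = 0.043), with all 23 libraries in the fit (0.02) and with only the 2 groups in the fit (0.0051).

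Aldh1a1 (ENSMUSG00000053279, chr19:20492715-20643465, plus strand) encodes a retinal dehydrogenase that makes retinoic acid. Aldh1a7 is a near-identical copy, so the split of reads between them is uncertain. Aldh1a1 had 0.117 and 0.180 CPM in SCCVII colonies, against 18.9, 25.1 and 29.3 CPM in HPV- colonies. The 9 macrophage libraries held 0 to 5 counts each, or at most 0.149 CPM. In the lines it had 0 counts for SCCVII, 0.390, 0.115 and 0.327 CPM for HPV+ and 1.81, 2.30 and 3.51 CPM for HPV- cells. HPV- colonies and the HPV- line were thus the highest groups and did not overlap with any other. HPV- colonies rose over HPV- macrophages by 8.31 ± 0.72 (adjusted p = 6e-05), or 9.46 without macrophage library 4, and over the HPV- line by 3.27 ± 0.51 (adjusted p = 0.0016). SCCVII colonies fell by 7.29 ± 0.81 relative to HPV- colonies (adjusted p = 0.0003). The copy Aldh1a7 had 0 counts in SCCVII colonies, against 2.94 ± 1.46 CPM in HPV- colonies. The HPV+ line fell by 3.19 ± 0.50 relative to the HPV- line (adjusted p = 0.0011).

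Aldh1a1 fell by 4.95 ± 0.72 in HPV- macrophages relative to the HPV- line (adjusted p = 2.2e-05), with a log2 of -6.03 without macrophage library 4. HPV+ macrophages held 2 counts and the HPV+ line 30, a ratio of 0.102 (95% counting interval 0.0119 to 0.404, adjusted p = 0.014). That call was lost without macrophage library 3 (adjusted p = 0.059). SCCVII colonies held 9 counts and SCCVII macrophages 1, a ratio of 13.6 (interval 1.88 to 594). It passed (adjusted p = 0.033) and was lost without colony library 1, colony library 2, macrophage library 1 or macrophage library 3 (adjusted p = 0.052, 0.15, 0.09 and 0.09). Among macrophages the gene was too low to be tested.

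Aldh1a2 (ENSMUSG00000013584, chr9:71215789-71296243, plus strand) encodes the retinal dehydrogenase that dendritic cells use. It was the 1 gene of the 9 found in macrophages and not in the lines. It had 0.137, 0.0661 and 0.171 CPM in SCCVII macrophages, 2.17, 1.39 and 2.51 CPM in HPV+ macrophages and 0.0324, 0.218 and 0.448 CPM in HPV- macrophages. HPV+ macrophages lay above all other libraries. The 9 tumour-cell libraries and both SCCVII colonies held 0 counts, and HPV- colonies held 3 counts in all. HPV+ macrophages rose over HPV- macrophages by 3.10 ± 0.64 (adjusted p = 0.0033), or 3.98 without HPV- library 4. SCCVII macrophages fell by 4.02 ± 0.70 relative to HPV+ macrophages (adjusted p = 0.00071) and did not pass against HPV- macrophages (-0.92 ± 0.75, adjusted p = 0.37). Against 3 counts summed over a line's libraries, macrophages were 73.2-fold higher in HPV+ and 8.38-fold higher in HPV- (adjusted p = 2.7e-05 and 0.0022). These bounds leave out the counting error of the macrophages, which held 143 and 23 counts. Without line library 3 the HPV+ bound was 46.3-fold and the HPV- bound 5.14-fold, and without macrophage library 4 the HPV- bound was 4.47-fold.

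Among the macrophage groups, marker sums of other blood cells were highest in HPV+, as was Aldh1a2. Within groups this order was not always kept. HPV- library 1 had the highest dendritic cell sum of its group (15.7 CPM) and the lowest Aldh1a2 (0.0324 CPM). HPV+ library 2 had the lowest dendritic cell sum (64.1 CPM) and the lowest Aldh1a2 (1.39 CPM). In SCCVII colonies, with 0 counts of Aldh1a2, dendritic cell markers summed to 24.7 to 39.0 CPM. The 6 dendritic cell markers, each with counts in every macrophage library, summed to 5.18 to 9.11 CPM in SCCVII macrophages, 64.1 to 203 CPM in HPV+ macrophages and 10.6 to 15.7 CPM in HPV- macrophages. Ccr7, the homing receptor of mature dendritic cells, averaged 99.5 ± 54.8 CPM in HPV+ and 5.47 ± 0.94 CPM in HPV- macrophages, and Flt3, the receptor for their growth factor, 15.3 ± 7.71 and 1.49 ± 0.58 CPM. The 4 eosinophil markers summed to 1.13 to 1.43 CPM in SCCVII macrophages. In HPV+ and HPV- macrophages they summed to 46.9 to 67.0 and 3.64 to 5.36 CPM. Nearly all of this was Siglecf, while Epx, the eosinophil peroxidase, was at 0 counts in all 9 libraries. Of the 2 eosinophil markers tested in HPV+ relative to HPV- macrophages, 1 rose and 1 fell. The 5 mast cell and basophil markers summed to 0.760 to 1.3 CPM in SCCVII, 9.93 to 19.8 CPM in HPV+ and 3.58 to 4.15 CPM in HPV- macrophages. The part of these cells in the Aldh1a2 result was not tested.

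Aldh1a3 (ENSMUSG00000015134, chr7:66390890-66427517, minus strand) encodes another retinal dehydrogenase, known in epithelial and tumour cells. It was low throughout, with 2.03 and 4.29 CPM in SCCVII colonies, against 0.418, 0.0877 and 0.362 CPM in HPV- colonies. Macrophages ranged from 0 to 0.136 CPM in SCCVII, 0.275 to 0.645 CPM in HPV+ and 0.0623 to 0.388 CPM in HPV- tumours. The lines had 0.684, 0.550 and 0.428 CPM in SCCVII, 1.32, 1.12 and 0.679 CPM in HPV+ and 0.296, 0.466 and 0.122 CPM in HPV- cells. SCCVII colonies lay above every other library. They rose over SCCVII macrophages by 5.48 ± 1.09 (adjusted p = 0.0028), or 4.82 without colony library 2 and 6.41 without macrophage library 3. Over HPV- colonies they rose by 3.41 ± 0.94 (adjusted p = 0.018), a call lost without SCCVII colony library 2 (2.76, adjusted p = 0.095) or HPV- colony library 2 (2.93, adjusted p = 0.053). The HPV+ line rose over the HPV- line by 1.81 ± 0.49 (adjusted p = 0.012), a call lost with all 23 libraries in the fit (adjusted p = 0.053). HPV- colonies did not pass against HPV- macrophages (0.74 ± 0.93, adjusted p = 0.5) or the HPV- line (0.03 ± 0.82, adjusted p = 0.98). Aldh1a3 did not pass between macrophages and line in HPV+ (-1.19 ± 0.65, adjusted p = 0.1) or HPV- cells (-0.61 ± 0.73, adjusted p = 0.46, and -2.00 with adjusted p = 0.043 without macrophage library 4).

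Cyp26b1 (ENSMUSG00000063415, chr6:84571414-84593908, minus strand) encodes a cytochrome P450 that breaks down retinoic acid and is known to be induced by it in several tissues. It had 2.15 and 2.58 CPM in SCCVII colonies, against 29.1, 45.1 and 30.8 CPM in HPV- colonies. In macrophages it had 0.0342, 0.132 and 0.0341 CPM for SCCVII, 2.26, 2.38 and 2.04 CPM for HPV+ and 0.324, 0.560 and 1.43 CPM for HPV- tumours. The 3 macrophage groups did not overlap, and HPV+ was the highest. In the lines it had 0.541, 0.492 and 0.536 CPM for SCCVII, 8.34, 8.86 and 7.83 CPM for HPV+ and 17.7, 16.9 and 17.7 CPM for HPV- cells, so that among lines HPV- was the highest. HPV- library 4 was the highest of its macrophage group for 8 of the 9 genes and the lowest for Crabp1.

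Cyp26b1 rose in HPV+ relative to HPV- macrophages by 1.54 ± 0.53 (adjusted p = 0.038) and by 2.35 (adjusted p = 0.001) without HPV- library 4. This call was lost in 6 of 12 alternatives, namely with only the 2 groups in the fit and without HPV- library 1, HPV- library 2 or any 1 HPV+ library, where the log2 changes were 1.17 to 1.60 and the adjusted p 0.054 to 0.099. SCCVII macrophages fell by 5.00 ± 0.70 relative to HPV+ (adjusted p = 0.00017), with a log2 of -5.89 without SCCVII library 2, and fell by 3.46 ± 0.70 relative to HPV- (adjusted p = 0.0038), with -2.65 without HPV- library 4 and -4.36 without SCCVII library 2. The HPV+ line fell by 1.07 ± 0.14 relative to the HPV- line (adjusted p = 0.00016). The HPV status change thus differed between macrophages and lines, by 2.62 ± 0.48 (interaction, adjusted p = 0.00036), or 3.39 without HPV- macrophage library 4. Macrophages fell by 1.74 ± 0.33 relative to the line in HPV+ (adjusted p = 0.00015) and fell by 4.36 ± 0.37 in HPV- (adjusted p = 2e-08), with a log2 of -5.15 without macrophage library 4. Colonies rose over macrophages in SCCVII by 5.06 ± 0.70 (adjusted p = 0.00038), or 5.96 without macrophage library 2, and in HPV- by 5.47 ± 0.57 (adjusted p = 0.00012), or 6.33 without macrophage library 4. SCCVII colonies fell by 3.87 ± 0.62 relative to HPV- colonies (adjusted p = 0.0016). HPV- colonies and the HPV- line did not overlap, but their difference of 1.02 ± 0.43 did not pass (adjusted p = 0.079), and it passed with DESeq2 (adjusted p = 0.024), with all 23 libraries in the fit (0.012), with only the 2 groups in the fit (0.0074) and without colony library 1 (1.11, adjusted p = 0.0496).

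Rarb (ENSMUSG00000017491, chr14:16430839-16819156, minus strand) encodes the retinoic acid receptor whose own promoter, shown above, holds the pair spaced by 5 bases. It had 0.703 and 0.150 CPM in SCCVII colonies, against 1.85, 1.58 and 3.23 CPM in HPV- colonies, the highest group. Macrophages had 0.240, 0.529 and 0.614 CPM in SCCVII, 0.276, 0.434 and 0.157 CPM in HPV+ and 0.0648, 0 and 0.209 CPM in HPV- tumours. The lines had 0.0855, 0.0579 and 0.0357 CPM in SCCVII, 0.150, 0.143 and 0.126 CPM in HPV+ and 0.329, 0.204 and 0.661 CPM in HPV- cells. HPV- colonies thus overlapped with no other group. They rose over HPV- macrophages by 4.51 ± 0.93 (adjusted p = 0.003), or 5.99 without macrophage library 4, and over the HPV- line by 2.47 ± 0.75 (adjusted p = 0.026). The second call was lost without colony library 3, line library 1 or line library 2 (adjusted p = 0.064, 0.087 and 0.099). SCCVII colonies did not pass against SCCVII macrophages (-0.15 ± 0.92, adjusted p = 0.91) or HPV- colonies (-2.39 ± 0.95, adjusted p = 0.072). The second passed with DESeq2 (-2.46, adjusted p = 0.0073) and with all 23 libraries in the fit (-2.40, adjusted p = 0.016). SCCVII macrophages did not pass against HPV- macrophages (2.24 ± 0.82, adjusted p = 0.057), and without HPV- library 4 the change was 3.67 (adjusted p = 0.0095). The HPV+ to HPV- macrophage change of 1.61 ± 0.87 likewise did not pass (adjusted p = 0.16) and was 3.03 without that library (adjusted p = 0.028). HPV- macrophages fell by 1.96 ± 0.72 relative to the HPV- line (adjusted p = 0.021), with a log2 of -3.38 without macrophage library 4, a call lost without macrophage library 1 or 2 or line library 3 (adjusted p = 0.071, 0.074 and 0.13). HPV+ macrophages did not pass against their line (1.19 ± 0.72, adjusted p = 0.14).

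Rarg (ENSMUSG00000001288, chr15:102234938-102257517, minus strand) encodes the receptor that prevails in skin and other squamous epithelium, and it was the member with the least spread over groups. It had 175 and 246 CPM in SCCVII colonies, against 66.7, 67.9 and 68.2 CPM in HPV- colonies. In macrophages it had 65.7, 56.5 and 54.9 CPM for SCCVII, 34.0, 29.9 and 30.5 CPM for HPV+ and 42.7, 41.8 and 66.1 CPM for HPV- tumours. In the lines it had 178, 175 and 181 CPM for SCCVII, 104, 122 and 129 CPM for HPV+ and 111, 124 and 112 CPM for HPV- cells. Every line library was above every macrophage library. HPV+ macrophages fell by 0.65 ± 0.17 relative to HPV- (adjusted p = 0.012), and SCCVII rose over HPV+ by 0.86 ± 0.17 (adjusted p = 0.0017). The SCCVII to HPV- macrophage change of 0.21 ± 0.17 did not pass (adjusted p = 0.36), and without HPV- library 4 it was 0.47 (adjusted p = 0.0017). The change between HPV+ and HPV- lines, 0.02 ± 0.09, did not pass (adjusted p = 0.88). Macrophages fell by 1.75 ± 0.15 relative to their line in HPV+ (adjusted p = 1.6e-08) and fell by 1.08 ± 0.14 in HPV- (adjusted p = 4.3e-06). SCCVII colonies rose over SCCVII macrophages by 1.83 ± 0.22 (adjusted p = 0.0002) and over HPV- colonies by 1.64 ± 0.22 (adjusted p = 0.00073). HPV- colonies fell by 0.76 ± 0.19 relative to the HPV- line (adjusted p = 0.011) and did not pass against HPV- macrophages (0.41 ± 0.20, adjusted p = 0.1, or 0.72 with adjusted p = 0.0073 without macrophage library 4).

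**Figure D4:**
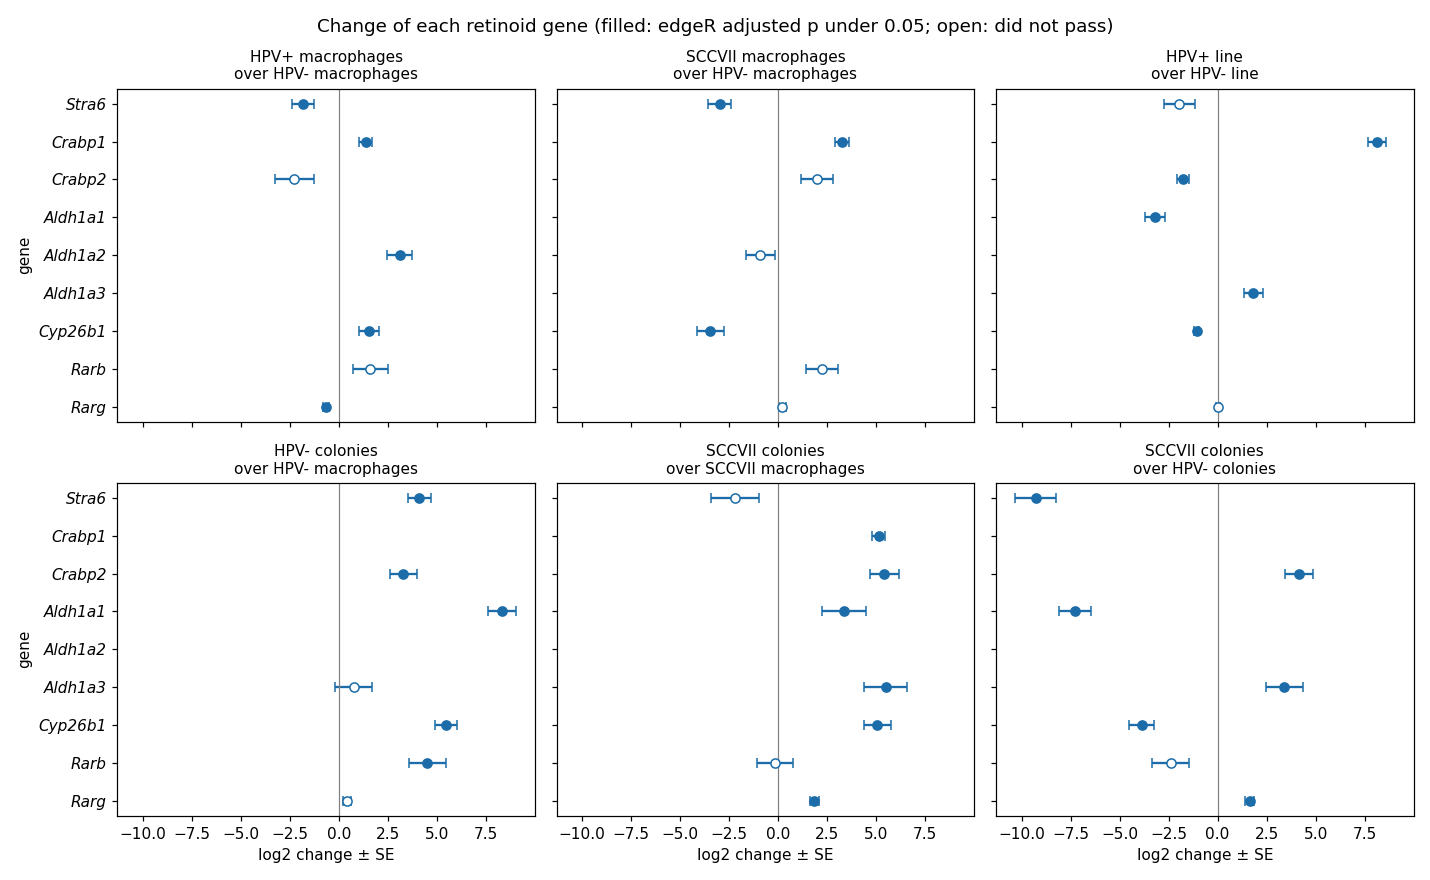
log2 change ± SE of the 9 genes (rows) in 6 comparisons (panels), filled where the edgeR adjusted p is under 0.05 and open where it is not; genes not tested, and changes against a group at 0 counts, are left out. Cyp26b1 lies right of 0 for HPV+ over HPV- macrophages (1.54) and left of 0 for HPV+ over HPV- lines (-1.07), and SCCVII colonies lie right of HPV- colonies for Crabp2 (4.15) and left for Aldh1a1 (-7.29) and Cyp26b1 (-3.87).

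In HPV+ relative to HPV- macrophages, which asks whether tumour viral status goes with macrophage state, 7 of the 9 genes were tested, and Crabp1, Aldh1a2 and Cyp26b1 rose and Stra6 and Rarg fell. That is 5 of 7, where 48.7% of all 14085 genes were called (22.8% higher and 25.9% lower). Of the other genes of the pathway, 4 of 6 tested transport and storage genes rose and 2 did not pass (median log2 0.85, against -0.05 over all genes). Stra6l, a second retinol carrier receptor known from mouse liver, averaged 84.3 ± 9.18 CPM in HPV+ and 12.3 ± 2.81 CPM in HPV- macrophages, a rise of 2.80 ± 0.15 (adjusted p = 1.5e-06). Of 14 retinol and retinal enzymes 8 fell and 6 did not pass (median -0.48). They included Rdh10, which oxidises retinol to retinal, at 5.42 ± 0.96 and 11.1 ± 1.95 CPM (-1.0 ± 0.17, adjusted p = 0.001). Of 4 other receptors 3 rose, among them Rara, the receptor with a known role in myeloid cells, at 183 ± 12.3 and 90.9 ± 3.54 CPM (1.03 ± 0.10, adjusted p = 2.9e-05). Of 9 retinoic acid target genes 1 rose, 1 fell and 7 did not pass (median -0.37). The riser was Tgm2, a transglutaminase, at 3988 ± 45.2 CPM in HPV+ and 645 ± 118 CPM in HPV- macrophages (2.65 ± 0.12, adjusted p = 6.3e-07), and the faller Dhrs3, which reduces retinal back to retinol, at 80.6 ± 9.09 and 155 ± 22.3 CPM (-0.92 ± 0.11, adjusted p = 0.00013). Marker sums also differed between these macrophages. Macrophage markers summed to 9714 to 11059 CPM in HPV+ and 16663 to 20681 CPM in HPV- libraries. The 4 endothelial markers summed to 141 to 169 and 19.4 to 37.5 CPM, but of the 3 tested 1 rose and 1 fell. The 6 epithelial markers summed to 425 to 554 and 75.3 to 145 CPM, most of it Cdh1 in HPV+ (443 ± 67.8 CPM). Of the 4 that were tested 2 rose, Cdh1 and Epcam, and 2 did not pass, Krt8 (25.1 and 31.1 CPM) and Krt18 (29.4 and 21.6 CPM). Their part in the changes of the retinoid genes was not tested.

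In SCCVII macrophages 3 of 7 genes were called relative to HPV- macrophages, Crabp1 higher and Cyp26b1 and Stra6 lower, where 39.2% of all genes were called (18.7% higher and 20.5% lower). Relative to HPV+ macrophages Crabp1, Crabp2 and Rarg rose and Aldh1a2 and Cyp26b1 fell, 5 of 7, where 63.2% were called (32.2% higher and 30.9% lower). The first count became 6 without HPV- library 4. The wider lists moved unevenly against HPV- macrophages. Of 6 transport and storage genes 1 rose and 3 fell (median -0.37, against -0.02 over all genes), of 14 enzymes 6 rose and 2 fell (median -0.05), of 4 other receptors 3 fell (median -0.46), and of 9 target genes 2 rose and 4 fell (median -0.55). Dhrs3 rose (417 ± 12.9 CPM in SCCVII, 155 ± 22.3 CPM in HPV-, log2 1.41 ± 0.11, adjusted p = 1.3e-05). Fabp5, which carries retinoic acid to PPARD, fell (8.03 ± 0.48 and 266 ± 114 CPM, -5.07 ± 0.32, adjusted p = 3.6e-06), as did Rara (44.5 ± 6.08 and 90.9 ± 3.54 CPM, -1.05 ± 0.10, adjusted p = 4.1e-05). Against HPV+ macrophages 1 transport gene rose and 4 fell, 10 of 14 enzymes rose and 1 fell, all 4 other receptors fell, and 2 target genes rose and 4 fell. The 2 SCCVII comparisons share the SCCVII libraries.

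Between the lines 7 of the 9 genes were tested for HPV+ relative to HPV- cells, and Crabp1 and Aldh1a3 rose and Crabp2, Aldh1a1 and Cyp26b1 fell, 5 of 7, where 47% of all 14396 genes were called (23.2% higher and 23.9% lower). Epithelial markers summed to 1349 to 1729 CPM in the HPV+ line and 304 to 468 CPM in the HPV- line, with 4 of 5 tested higher and none lower, and mesenchymal markers to 3.21 to 11.0 and 64.8 to 141 CPM, with 4 of 5 lower and none higher. Their part in these changes was not tested. Of the wider lists, 3 of 7 transport and storage genes fell and 4 did not pass (median -0.58, against -0.01 over all genes), 3 enzymes rose and 5 fell of 15 (median -0.25), 1 receptor of 4 rose (median 0.08), and 3 target genes rose and 2 fell of 9 (median 0.18). The retinol dehydrogenase Dhrs9 stood at 112 ± 15.3 CPM in HPV+ and 38.1 ± 10.3 CPM in HPV- cells (1.55 ± 0.18, adjusted p = 6.8e-05). The transcription factor gene Gata6 stood at 15.3 ± 1.80 and 1.61 ± 0.14 CPM (3.24 ± 0.18, adjusted p = 6.7e-07), while Meis2 fell (65.7 ± 4.43 and 121 ± 13.3 CPM, -0.89 ± 0.10, adjusted p = 6.7e-05).

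Macrophages set against the line of their tumour were lower for most of the 9 genes that were called. In HPV+ tumours Aldh1a2 rose and Crabp1, Crabp2, Aldh1a1, Rarg and Cyp26b1 fell, 6 of 9, where 78.8% of all 15835 genes were called (39.6% higher and 39.1% lower). In HPV- tumours Crabp1 and Aldh1a2 rose and Crabp2, Aldh1a1, Rarb, Rarg and Cyp26b1 fell, 7 of 9, where 76.1% were called (38.7% higher and 37.4% lower). As calls either way, these shares are near or below those of all genes. Falls, 5 of 9 in each, were above the share of all genes called lower. Rises, 1 of 9 in HPV+ and 2 of 9 in HPV-, were below the share called higher. With 9 chosen genes this is a description, and the set was not tested. All 4 other receptors rose in both comparisons, with medians of 0.90 and 0.72, and the enzymes fell more often than they rose, 11 against 5 of 17 in HPV+ and 10 against 5 of 17 in HPV-. Dhrs3 stood at 80.6 ± 9.09 CPM in HPV+ macrophages, against 0.675 ± 0.25 CPM in the HPV+ line. In HPV- macrophages it stood at 155 ± 22.3 CPM, against 0.791 ± 0.22 CPM in the HPV- line. Adh7, an alcohol dehydrogenase that oxidises retinol in epithelium, stood at 0.133 ± 0.13 CPM in HPV+ macrophages, against 28.2 ± 7.95 CPM in the HPV+ line (-7.57 ± 0.52, adjusted p = 1.3e-09). Transport and storage genes rose in 5 and fell in 1 of 8 in HPV+, and rose in 5 and fell in 2 of 8 in HPV-, and target genes rose in 4 and fell in 5 of 10 in each.

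The HPV status change was larger or smaller in macrophages than in lines for 4 of the 9 genes by the interaction test, where 41% of all genes were called (19.4% higher and 21.6% lower). These were Cyp26b1 (above), Crabp1 (-6.73 ± 0.71, adjusted p = 2e-06), Rarg (-0.66 ± 0.20, adjusted p = 0.016) and Rarb (3.15 ± 1.02, adjusted p = 0.021). The Crabp1 size rests on 6 counts in the HPV- line. The Rarb call was lost without HPV- line library 3 (2.54, adjusted p = 0.067) or HPV+ macrophage library 2 (2.72, adjusted p = 0.068) and was 4.54 without HPV- macrophage library 4. Aldh1a2 had 0 counts in both lines, so its interaction could not be estimated.

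Colonies were higher than macrophages for most of the 9 genes. In SCCVII colonies Crabp1, Crabp2, Aldh1a1, Aldh1a3, Rarg and Cyp26b1 rose relative to SCCVII macrophages, 6 of 8 tested, where 51.9% of all 16238 genes were called (29.7% higher and 22.3% lower). That count includes Crabp1, from which the choice of genes started, and supports no statement about the set. In HPV- colonies Crabp2, Aldh1a1, Rarb, Cyp26b1 and Stra6 rose and Crabp1 fell relative to HPV- macrophages, 6 of 8, where 62.7% were called (34% higher and 28.7% lower). Colonies also differed from macrophages in their macrophage marker sums and line-typical transcripts (above), and mesenchymal markers summed to 2778 and 4093 CPM in SCCVII colonies, against 13.7 to 15.6 CPM in SCCVII macrophages, and to 360 to 1269 CPM in HPV- colonies, against 13.2 to 75 CPM in HPV- macrophages. Each of the 6 mesenchymal markers had counts in every colony library. The part of tumour-line or mesenchymal cells in these results was not tested. As a measurement, Crabp1 and Crabp2 stood in SCCVII colonies at 139% and 63.9% of their level in the SCCVII line, and Rarg at 118%, while Aldh1a3 stood at 570%, Cyp26b1 at 452% and Rarb at 714%. The Aldh1a3 value was 366.5% without colony library 2, and the Rarb value was 251% without colony library 1 and 1178% without colony library 2. The Rarb value rests on 6 counts in the SCCVII line and 23 in the SCCVII colonies. In HPV- colonies Rarg stood at 58.3% of the HPV- line, while Aldh1a1 stood at 962%, Stra6 at 638% (377% without colony library 2), Rarb at 557%, Crabp2 at 286% and Cyp26b1 at 201%, and Aldh1a3 at 98.0%.

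Of the wider lists of the pathway, target genes mostly rose relative to macrophages in SCCVII and HPV- colonies, and the other lists were mixed. Of all genes 29.7% were called higher and 22.3% lower in SCCVII colonies, and 34% higher and 28.7% lower in HPV- colonies. In SCCVII colonies 6 of 9 transport and storage genes rose relative to SCCVII macrophages (median 3.62, against 0.07 over all genes), 8 enzymes rose and 5 fell of 19 (median 0.31), 1 of 4 other receptors rose (median 0.37), and 8 target genes rose and 1 fell of 12 (median 2.27). Meis2, a homeobox gene induced by retinoic acid, stood at 22.8 ± 7.17 CPM in SCCVII colonies and 0.259 ± 0.12 CPM in SCCVII macrophages (6.44 ± 1.09, adjusted p = 0.0011). In HPV- colonies 5 transport and storage genes rose and 3 fell of 9 (median 0.67, against 0.02 over all genes), 11 enzymes rose and 3 fell of 19 (median 0.73), 3 of 4 other receptors fell (median -0.73), and 9 target genes rose and 3 fell of 12 (median 2.32). Rara was among those that fell, at 39.4 ± 6.68 CPM in HPV- colonies and 90.9 ± 3.54 CPM in HPV- macrophages (-1.21 ± 0.16, adjusted p = 0.00036). Fabp5 fell likewise, at 47.2 ± 29.7 and 266 ± 114 CPM (-2.49 ± 0.77, adjusted p = 0.02).

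HPV- colonies were therefore also set against the HPV- line, a comparison added after the values were seen. Aldh1a1, Rarb and Stra6 rose and Crabp1 and Rarg fell, 5 of 8, where 50.4% of all 15532 genes were called (27.7% higher and 22.7% lower) and the median change of all genes was 0.13. Mesenchymal markers were higher in these colonies as well, 360 to 1269 CPM against 64.8 to 141 CPM in the line, with Col1a2 at 147%, Col1a1 at 342%, Pdgfra at 425% and Col3a1 at 2239% of their level in the line. Of the wider lists, 5 of 9 transport and storage genes, 7 of 18 enzymes and 5 of 11 target genes rose, and 3 enzymes fell, with medians of 1.49, 0.25 and 1.47. Adh1, a class I alcohol dehydrogenase that oxidises retinol, stood at 6.42 ± 2.94 CPM in HPV- colonies and 0.464 ± 0.38 CPM in the HPV- line (3.76 ± 0.73, adjusted p = 0.0041).

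The 2 kinds of colony differed in most of the 9 genes. SCCVII colonies were higher for Crabp1, Crabp2, Aldh1a3 and Rarg and lower for Aldh1a1, Cyp26b1 and Stra6 relative to HPV- colonies, 7 of 8, where 40.4% of all genes were called (20.5% higher and 19.9% lower). This count and that of the interaction below include Crabp1, from which the choice of genes started. Neither count supports a statement about the set. Cyp1b1, a cytochrome P450 that can oxidise retinol, fell, at 1.05 ± 0.43 CPM in SCCVII and 28.9 ± 14.2 CPM in HPV- colonies (-4.74 ± 1.01, adjusted p = 0.006). Of 9 transport and storage genes 4 rose and 5 did not pass, of 19 enzymes 4 rose and 3 fell, of 4 other receptors 3 rose, and of 12 target genes 4 rose and 2 fell, with medians of 1.34, -0.07, 0.63 and 0.13 against -0.02 over all genes. The change from macrophage to colony differed between SCCVII and HPV- for 5 of 8 genes by an interaction test that was also added after the values were seen, where 24.1% of all genes were called (13.5% higher and 10.6% lower). It was more positive in SCCVII for Crabp1, Aldh1a3 and Rarg and more negative for Rarb and Stra6. The Aldh1a3 call was lost in 11 of 16 alternatives, among them without HPV- macrophage library 4 (3.27, adjusted p = 0.15), SCCVII colony library 2 (4.08, adjusted p = 0.11) or SCCVII macrophage library 3 (5.67, adjusted p = 0.054). The Rarb call was lost in 6 of 16, among them without SCCVII colony library 2 (-3.91, adjusted p = 0.091), and its change was -6.15 without HPV- macrophage library 4.

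As a description with no test, the genes whose log2(CPM + 1) followed each member most closely over the 23 libraries were picked by Pearson's r among 11248 named genes with a group mean of at least 10 CPM. The 23 libraries share groups, so r mostly reflects group means. For Crabp1 they were Sh3gl3 (r = 0.938), Alad (0.931) and Arsj (0.931), and for Crabp2 Il1rl1 (0.983), Lrrc75b (0.968) and Itgbl1 (0.968), each high in SCCVII colonies and line. Il1rl1 averaged 520 CPM in SCCVII colonies and 539 CPM in the SCCVII line. For Aldh1a1 they were Chl1 (0.987), Scg2 (0.986) and Tprg (0.986), with Chl1 at 124 CPM in HPV- colonies and 5.11 CPM in the HPV- line. Stra6 was closest to Pdgfd (0.958), Islr (0.958) and Agbl5 (0.956), Cyp26b1 to Lbp (0.961), Pik3c2b (0.956) and Tmie (0.953), and Rarg to Myo10 (0.954), Yaf2 (0.953) and Macrod2 (0.952).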

How the data were processed

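The 23 libraries were made with TruSeq Stranded mRNA kits, per the labels' protocols. The authors deposited RSEM expected counts and TPM per gene in 2 tables, of 20 libraries and of the 3 HPV- colonies. Tools listed in the submitters' processing notes are STAR 2.5.3a and RSEM 1.3.0, with build mm10. For the annotation release and strand setting nothing is given in the sources used here, so overlapping and antisense genes are uncertain. Expected counts were rounded (13.1% of values were not whole). Levels are CPM scaled by TMM over 23 libraries, and the deposited TPM compares genes with each other. Changes were tested with edgeR 4.0.16 (quasi-likelihood test, TMM, filterByExpr with a minimum count of 10 and total of 15, prior count 0.125, R 4.3.3) over all genes passing the filter, with Benjamini-Hochberg adjustment at 0.05. They are log2 changes ± SE, relative to the group named second. The SE was not estimated directly. It is the size of the change divided by the square root of the test's F. It is thus approximate, least certain where a group held few counts, and may fall below counting error there. Macrophages, lines, both, and colonies with macrophages were fitted separately, with 9 to 18 libraries. HPV- colonies against the HPV- line came from another fit, of the 9 HPV- colony, macrophage and line libraries. Biological coefficients of variation were 16.0% to 18.1% without and 39.3% to 40.2% with colonies. Gene names came from a table pairing IDs with symbols (35243 of 36793).

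The 9 genes, the wider lists and the marker lists were chosen with earlier results of these data known. The text names the 9 genes throughout and, from each wider list, called genes with the largest rise or fall; not every such gene is reported here. 2 comparisons, HPV- colonies against the HPV- line and the colony interaction, were added after values were seen. Alternatives were DESeq2 1.42.0, RLE size factors, no filter, other libraries in the fit, a replicate block and leaving out each library. Replicate numbers were not taken to pair samples: in no comparison with 3 shared numbers did every pair correlate above 0.1. No replicate pair agreed within sampling noise (chi-square per gene at least 3.23).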

Additional observations from a re-analysis of the deposited data

Results flagged for a closer look

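For 4 genes the HPV status change differed between macrophages and lines by the interaction test of edgeR (macrophage change minus line change, log2). It was -6.73 for Crabp1, 3.15 for Rarb, -0.66 for Rarg and 2.62 for Cyp26b1. The Crabp1 size rests on 6 counts in the HPV- line, and the Rarb value on 9 to 44 counts per group. Crabp1 rose with HPV status in both macrophages (1.36) and lines (8.12), and Cyp26b1 rose in macrophages (1.54) and fell in lines (-1.07).

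For 5 genes the change from macrophage to colony differed between SCCVII and HPV- models (SCCVII change minus HPV- change, log2). It was 13.47 for Crabp1, a size that depends on the prior count because HPV- colonies held 0 counts. Its SCCVII colony level may repeat the level that chose the genes. It was 4.73 for Aldh1a3, -4.65 for Rarb, 1.42 for Rarg and -6.31 for Stra6, the last resting on 1 count in SCCVII colonies. HPV- colonies come from a separate table and SCCVII mice are of another strain, so neither can be told apart from the difference between models.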

How the results depend on the processing

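Of the results on single genes and levels, 1416 kept direction and side of the threshold under an alternative, 51 lost a call, 42 gained one, 18 turned sign and 16 levels moved beyond 1 SD; of counts and leading values 287 stayed within 1.5 times and 22 moved. The cause was not tested. Crabp1 in the SCCVII line was 271 CPM with RLE size factors, against 298 CPM. With all 23 libraries in the fit, 3708 genes differed between HPV+ and HPV- macrophages (against 6853) and 2944 between SCCVII and HPV- macrophages (against 5527), and 5 members were called in the second, as with DESeq2 (against 3). With only the 2 groups in the fit 3252 genes differed between SCCVII and HPV- colonies (against 6554). The colony interaction gave 5904 genes with DESeq2, against 3921. Fitting only the groups compared gives it no other fit and was not run. Leaving out 1 library each, members called ranged from 3 to 5 for HPV+ against HPV- macrophages, 3 to 6 for SCCVII against HPV- macrophages and 3 to 6 for the colony interaction, whose gene count ranged from 2535 to 6949.

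The labels do not say that replicate numbers pair the samples. Deviations of same-numbered libraries correlated above 0.1 at each shared number in 2 comparisons, both with only 2 shared numbers (0.152 and 0.114 for HPV+ against HPV- macrophages, 0.388 and 0.25 for SCCVII against HPV- colonies). With the replicate block, 6 members were called for SCCVII against HPV- macrophages, and the colony interaction gave 1457 genes and 2 members (against 5), Rarg being 1.09 (adjusted p = 0.068) and Rarb -5.81 (adjusted p = 0.064) there. Of 95 member results the block kept 80, lost 5 calls, gained 8 and turned 2 signs.

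Some changes that did not pass did so under another fit beside those named above. With DESeq2 and with all 23 libraries these were Crabp2 (adjusted p = 0.044 and 0.021) and Rarb (0.049 in both) in SCCVII against HPV- macrophages, Rarg in HPV- colonies against macrophages (0.03 and 0.02) and Crabp2 in the colony interaction (0.049 and 0.0497), where Aldh1a1 passed with DESeq2 (0.0042). Stra6 passed between lines with no filter and with all 23 libraries (0.042 and 0.047). With only the 2 groups in the fit Stra6 passed in HPV- and Aldh1a3 in HPV+ macrophages against their line (0.047 in both).

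The sign changes were all of values that did not pass. With the block, Crabp2 was 1.13 and Aldh1a3 0.99 in the HPV status interaction. Leaving out 1 library each, values ranged there from -1.40 to 1.13 for Crabp2, -1.09 to 0.79 for Aldh1a3 and -0.42 to 1.12 for Stra6. They ranged from -0.033 to 0.096 for Rarg between lines, -1.59 to 0.59 for Rarb in SCCVII colonies against macrophages, -0.39 to 0.52 for Aldh1a3 in HPV- colonies against the line, and -1.29 to 0.49 for Cyp26b1 in the colony interaction.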
